A study of Saccharomyces cerevisiae with 24 samples.

Results

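Budding yeast without ROX1 (rox1Δ) was compared with wild type yeast, both pretreated with a mild dose of hydrogen peroxide. The arrays were chosen by their titles, which gave 8 of the 24 arrays of the series, 4 rox1Δ and 4 wild type, called biological replicates in the design text. Each array held treated RNA against untreated RNA in 2 colours. The dose was 0.1 mM for 45 min per the labels. The study's array methods equate the pretreatment, apart from its dose, with the longer acute treatment, so the time is not certain. Both strains were of the BY4741 background, grown in rich medium, and the rox1Δ strain came from the yeast deletion collection, so that it was a single deletion isolate. For wild type cells the untreated RNA came from a sham-treated portion of the same culture. Which strain gave the untreated RNA of the rox1Δ arrays is not stated in the sources used here. Pretreated mga2Δ and yap1Δ arrays, 4 each, were the reference where the level of a gene was compared. The fits took in all 24 arrays, which also include wild type cells given a high dose alone or after pretreatment. These other arrays thus helped to set the spread and, for ratios, the dye effect.

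Rox1 is a DNA-binding repressor of budding yeast. Cells with oxygen make heme, heme turns on ROX1, and Rox1 then keeps the hypoxic genes low, among them genes of heme and sterol synthesis, of the unsaturated fatty acid supply, of the respiratory chain and of the anaerobic cell wall. When oxygen runs short, Rox1 is lost and these genes are made. Mild doses of peroxide are known to induce antioxidant enzymes and to prepare cells for a later high dose.

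ROX1 itself had no value on any of the 4 rox1Δ arrays. On the wild type arrays its mean intensity over both channels was 723.6, 1149, 1037 and 1050, and its log2 ratio was -1.57, -1.57, 0.43 and 0.21. The rox1Δ arrays lacked values at 1866 of 6251 open reading frames (ORFs), the wild type arrays at 19. Of the 1849 ORFs with a wild type value and no rox1Δ value, 16 were as bright as ROX1 on the wild type arrays or brighter, ROX1 included. Dim ORFs were thus the ones left out, and ROX1 was not dim. URA3, LEU2 and HIS3, which BY4741 lacks, had values on 4 of the 8 arrays, all wild type, where their mean log2 signal was 6.96, 6.33 and 5.95, against 9.60 for the median ORF with a value on both sets.

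Ratios are given as log2 of treated over untreated intensity. Across the 4373 ORFs with values on all 24 arrays, the mean ratios of the rox1Δ arrays and the wild type arrays correlated at r = -0.37 (Spearman rho = -0.31), a description across genes, which are not independent replicates. Mean ratios of mga2Δ and wild type arrays correlated at 0.39, and those of yap1Δ and wild type arrays at 0.27. The rox1Δ mean ratios correlated only weakly with other groups, at -0.20 with mga2Δ and -0.05 with yap1Δ. With wild type arrays given the high dose the values were -0.21 after pretreatment and 0.07 without it. The part of the ratio that follows the dye correlated at 0.68 between rox1Δ and wild type arrays, with the same sign. With the mean dye part of the other groups taken off, rox1Δ replicates 1 to 4 differed in their correlation with the wild type mean ratio. It was -0.16, -0.21, -0.27 and -0.03. Which channel of the rox1Δ arrays holds the treated RNA is therefore not settled, and the labelled direction runs opposite to the one the study used for these arrays. Every difference is given as labelled and with the 2 RNAs of the rox1Δ arrays exchanged, each channel keeping its dye. A difference of the same sign under both readings means that the wild type ratio lay farther from 0 than the rox1Δ ratio. Replicate 3 of rox1Δ stood apart, with r = 0.42 to replicate 4 of the same dye orientation, against 0.81 between rox1Δ replicates 1 and 2 and 0.92 and 0.98 between the wild type pairs. Median intensities were 1417 to 1492 on rox1Δ arrays and 515 to 521 on wild type arrays, so strain and array set cannot be told apart.

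As labelled, pretreatment ratios were higher in rox1Δ than in wild type cells at 23 ORFs (0.526% of 4373 tested) and lower at 40 (0.915%), by limma at an adjusted p under 0.05. At all 63 the mean ratios of the strains lay on opposite sides of 0. With the channels exchanged, 0 ORFs passed (171 at an unadjusted p under 0.05, smallest adjusted p = 0.327), so none differed in the same direction under both readings (35 at an unadjusted p under 0.05 in both) and none in opposite directions (10). Without rox1Δ replicate 3 the labelled counts were 18 and 25, and the exchanged count was again 0. The fit assumes that the dye effect of a gene is the same in all 6 groups. With a dye effect of its own for each group, 365 ORFs passed as labelled (8.35%), 13 (0.297%) with the channels exchanged and 7 under both readings in the same direction (0.16%): GPX2, HEM13, FRD1, SCW11, RNR2, HSC82 and GRE2. These 7 genes were named after their values were seen, and in each the wild type ratio was the larger in size, as the same direction under both readings implies.

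**Figure D1:**
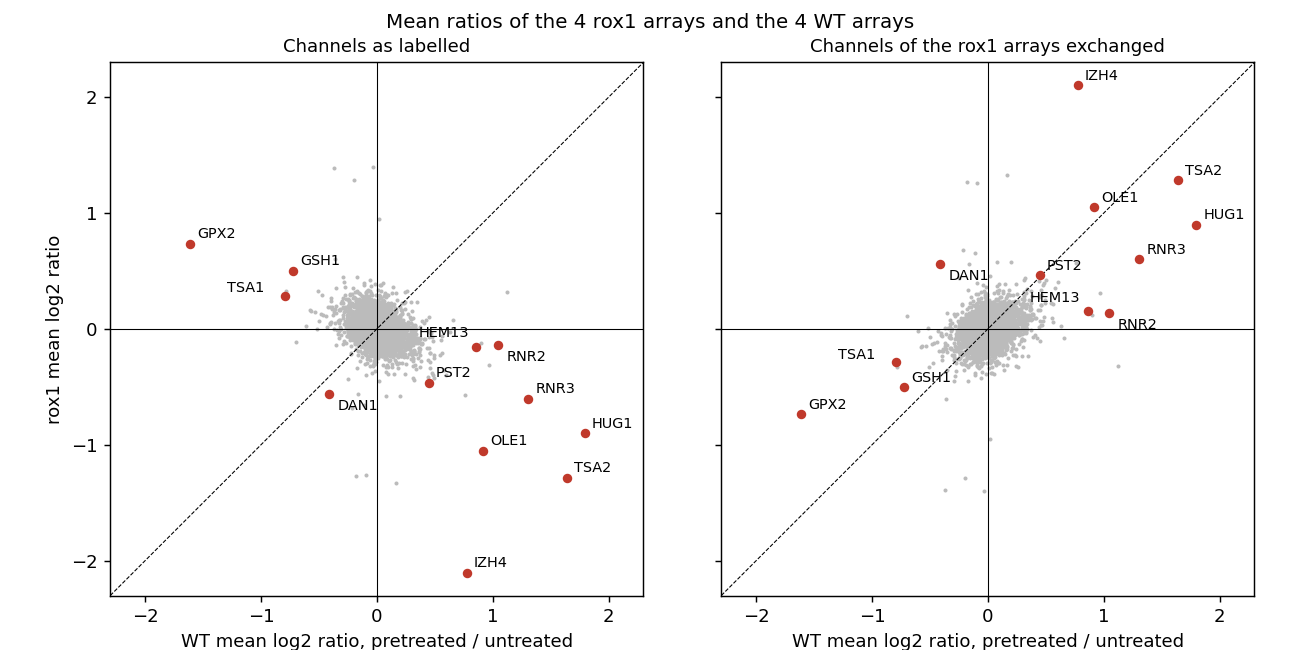
Mean log2 ratio of the 4 rox1Δ arrays (vertical axis) against that of the 4 wild type arrays (horizontal axis) for 4373 ORFs, as labelled (left) and with the RNAs of the rox1Δ arrays exchanged (right). The dashed line marks equal ratios, and named genes are in red: TSA2 and OLE1 lie across the axis from the line on the left and near it on the right, while HEM13 and RNR2 lie close to 0 on the rox1Δ axis in both panels.

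Wild type ratios passed the test against 0 at 44 ORFs, 27 above and 17 below. At these 44, which were chosen by their wild type values, the median size of the ratio was 0.22 on the rox1Δ arrays and 0.53 on the wild type arrays, and the rox1Δ mean lay nearer 0 at 42. Over all tested ORFs the rox1Δ mean lay nearer 0 at 55.9%. Choosing ORFs by their wild type ratios favours smaller ratios in any other group, so no weaker response of rox1Δ is read from these values. As labelled, 40 of the 44 had a rox1Δ mean of the opposite sign, 25 of them raised in wild type cells and 15 lowered.

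Ribonucleotide reductase makes the precursors of DNA, and the 4 genes given here for the enzyme and its inhibitor had mean ratios smaller in size in rox1Δ than in wild type cells. RNR2, a small subunit, had log2 ratios of 0.09, 0.02, -0.46 and -0.20 on the rox1Δ arrays, against 0.72, 0.06, 1.66 and 1.73 on the wild type arrays. The groups overlapped at wild type replicate 2, which lay below rox1Δ replicate 1. The difference was -1.18 ± 0.27 (SE, n = 4 arrays per strain, limma adjusted p = 0.0269) as labelled and -0.91 (95% interval -1.47 to -0.34, adjusted p = 0.778) with the channels exchanged. The labelled difference did not pass without rox1Δ replicate 3 or 4 or wild type replicate 3 or 4 (adjusted p = 0.0683 to 0.134). HUG1, an inhibitor of the enzyme made after DNA damage, had -0.94, -1.09, -0.58 and -0.99 on the rox1Δ arrays and 1.66, 0.05, 2.73 and 2.73 on the wild type arrays. RNR3, the damage-inducible large subunit, had -0.88, -0.89, -0.42 and -0.23, against 0.61, 0.10, 2.42 and 2.10. Both genes were on one side of 0 on 4 of 4 rox1Δ arrays and on the other side on 4 of 4 wild type arrays. As labelled, HUG1 differed by -2.69 ± 0.37 (adjusted p = 0.000212) and RNR3 by -1.91 ± 0.28 (adjusted p = 0.000341). With the channels exchanged the values were -0.90 and -0.71, neither past the test. RNR4, the other small subunit, averaged 0.32 on the rox1Δ arrays and 1.13 on the wild type arrays, and differed by -0.81 and -1.44 under the readings (adjusted p = 0.256 and 0.327). Its rox1Δ values of 1.26, 0.86, -0.41 and -0.44 split by dye, as did its wild type values of 2.42, 1.30, 0.35 and 0.43. In RNR2, HUG1 and RNR3 the wild type values were higher on replicates 3 and 4, with treated RNA in Cy5, than on replicates 1 and 2. The SD over the 4 wild type arrays was between 0.80 (RNR2) and 1.27 (HUG1) in these 4 genes. Of 10 tested genes of the ribonucleotide reductase and DNA damage list, 3 were lower as labelled, beside 0.915% of all tested ORFs, and 0 passed with the channels exchanged. The rox1Δ mean was nearer 0 in 6 of the 10, beside 55.9% of all tested ORFs, and the median size of the ratio was 0.15 in rox1Δ and 0.30 in wild type cells, beside 0.07 and 0.08 over all tested ORFs.

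The peroxide-scavenging genes that differed as labelled had ratios of opposite sign in rox1Δ and wild type cells, as had all 63 called ORFs. Exchanging the channels turns the rox1Δ sign, so the signs then matched by construction. Nothing particular to these genes is read from the signs. TSA2, an inducible peroxiredoxin, had ratios of -1.45, -1.50, -1.14 and -1.04 on the rox1Δ arrays, against 0.91, 1.14, 2.10 and 2.42 on the wild type arrays. The difference was -2.92 ± 0.21 (adjusted p = 8.8e-09) as labelled and -0.36 (95% interval -0.79 to 0.07) exchanged. GPX2, a phospholipid hydroperoxide glutathione peroxidase, ran the other way, with 0.68, 0.83, 0.74 and 0.70 on the rox1Δ arrays and -1.32, -1.45, -1.82 and -1.88 on the wild type arrays. The size of its ratio did not overlap between strains: the rox1Δ values were all nearer 0 than any wild type value. GPX2 differed by 2.35 ± 0.27 (adjusted p = 1.7e-05) as labelled and by 0.88 (95% interval 0.32 to 1.44, adjusted p = 0.858) exchanged. The main cytosolic peroxiredoxin TSA1 (0.29 in rox1Δ, -0.80 in wild type), the copper-zinc superoxide dismutase SOD1 (0.33 and -0.78) and the mitochondrial superoxide dismutase SOD2 (0.29 and -0.47) were higher in rox1Δ as labelled. Their exchanged differences of 0.51, 0.45 and 0.18 did not pass. GSH1, the enzyme that starts glutathione synthesis, had 0.59, 0.75, 0.23 and 0.45 in rox1Δ, against -0.47, -0.66, -0.86 and -0.89 in wild type cells. Its differences were 1.22 ± 0.13 (adjusted p = 6.01e-06) and 0.22 (95% interval -0.06 to 0.49). Of 10 tested scavenging genes, 4 were higher and 1 lower as labelled, beside 0.526% and 0.915% of all tested ORFs, and 8 had a rox1Δ ratio nearer 0 than the wild type ratio, beside 55.9%, without a test of that share.

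**Figure D2:**
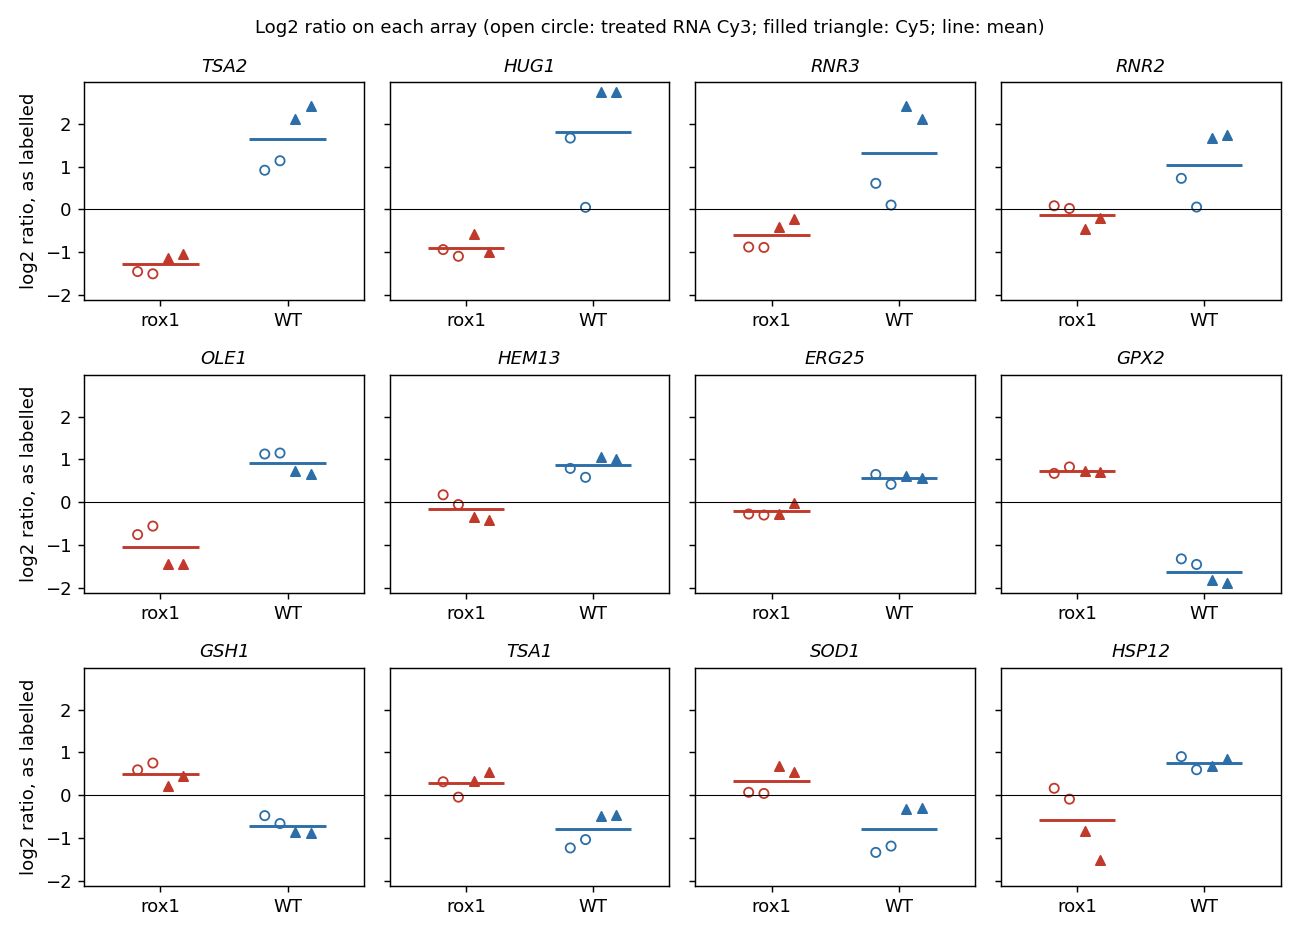
Log2 ratio of treated over untreated intensity, as labelled, on each of the 4 rox1Δ arrays (left, red) and 4 wild type arrays (right, blue) for 12 genes, with the mean as a line. Open circles mark arrays with treated RNA in Cy3 and filled triangles those with it in Cy5. TSA2 lies between -1.50 and -1.04 on the rox1Δ arrays and between 0.91 and 2.42 on the wild type arrays, and GPX2 has the opposite signs.

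Lipid and heme genes, among them some that Rox1 is known to repress, differed in the size of the rox1Δ ratio, without a test between genes. OLE1, the fatty acid desaturase, had a large ratio in both strains: -0.75, -0.55, -1.45 and -1.45 in rox1Δ, against 1.13, 1.15, 0.72 and 0.65 in wild type cells. It differed by -1.96 ± 0.19 (adjusted p = 2.09e-06) as labelled and by 0.14 (95% interval -0.26 to 0.54) exchanged. HEM13, the coproporphyrinogen oxidase of heme synthesis and a classical Rox1 target, had a ratio near 0 in rox1Δ. Its values were 0.18, -0.05, -0.33 and -0.40, against 0.79, 0.58, 1.06 and 1.01 in wild type cells, so that in size every rox1Δ value was below every wild type value. It differed by -1.01 ± 0.21 (adjusted p = 0.0115) as labelled, and by -0.71 (95% interval -1.14 to -0.27, adjusted p = 0.778) exchanged. Without rox1Δ replicate 3 the labelled difference was -0.91 and no longer passed (adjusted p = 0.0548). The C-4 methyl sterol oxidase ERG25 averaged -0.21 in rox1Δ and 0.56 in wild type cells and differed by -0.77 ± 0.14 (adjusted p = 0.00531), and the sterol scaffold protein ERG28 averaged -0.22 and 0.34. ERG11, the lanosterol demethylase, averaged -0.09 and 0.33 and did not pass. Of 26 ergosterol genes 2 were lower as labelled, and of 15 fatty acid genes 5 were lower, beside 0.915% of all tested ORFs. The 5 were OLE1, the fatty acid synthase subunits FAS1 (-0.23 in rox1Δ and 0.54 in wild type) and FAS2 (-0.20 and 0.37), the acyl-CoA synthetase FAA4 (-0.38 and 0.47) and the elongase ELO1 (-0.28 and 0.38). None of these genes passed with the channels exchanged, and FAS1 did not pass as labelled without rox1Δ replicate 2 or wild type replicate 1 (adjusted p = 0.0521 and 0.052). ELO1 overlapped between the strains, from -0.84 to 0.32 on the rox1Δ arrays and from -0.31 to 1.02 on the wild type arrays. FAS1 overlapped too, from -0.70 to 0.10 in rox1Δ. On the wild type arrays FAS1 was at 1.01 and 1.10 with treated RNA in Cy3, and at 0.03 and 0.03 in Cy5. In 13 of the 15 fatty acid genes the rox1Δ mean was nearer 0, beside 55.9% of all tested ORFs, with median sizes of 0.17 in rox1Δ and 0.23 in wild type cells.

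**Figure D3:**
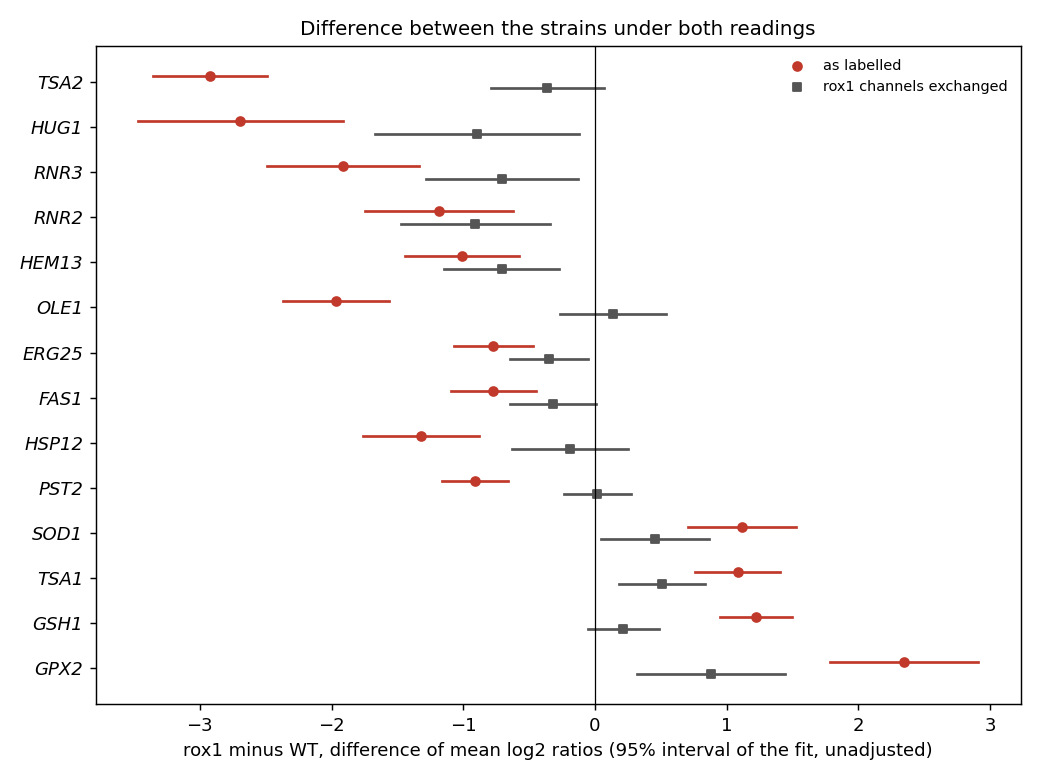
Difference of mean log2 ratios, rox1Δ minus wild type, for 14 genes as labelled (red circles) and with the RNAs of the rox1Δ arrays exchanged (grey squares), each with its unadjusted 95% interval from the fit over all arrays. TSA2, OLE1 and PST2 have exchanged differences of -0.36, 0.14 and 0.02 with intervals that span 0, whereas RNR2 and HEM13 keep -0.91 and -0.71.

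Of the hypoxic genes that Rox1 is known to repress, 11 of 13 were tested. CYC7, the hypoxic cytochrome c, had no value on the rox1Δ arrays, and the cell wall protein TIR1 none on the rox1Δ or wild type arrays. As labelled 2 of the 11, HEM13 and OLE1, had lower ratios in rox1Δ, beside 0.915% of all tested ORFs. None passed when exchanged, as was so for all tested ORFs. The median size of the ratio was 0.11 in rox1Δ and 0.27 in wild type cells, and the rox1Δ mean was nearer 0 in 6 of 11, beside 55.9% of all ORFs. ANB1, a translation factor of the eIF5A kind, averaged -0.03 in rox1Δ and 0.03 in wild type cells, and COX5B, the hypoxic subunit of cytochrome oxidase, 0.16 and -0.08. DAN1, a cell wall mannoprotein made without oxygen, averaged -0.56 and -0.41, and its differences of -0.15 and 0.97 did not pass.

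Other groups were smaller. Of 11 tested zinc homeostasis genes, 3 membrane proteins of the IZH family were lower as labelled, beside 0.915% of all tested ORFs: IZH1 (-0.42 in rox1Δ and 0.50 in wild type), IZH2 (-0.34 and 0.46) and IZH4. IZH1 overlapped between the strains, from -1.23 to 0.44 on the rox1Δ arrays and from -0.16 to 1.18 on the wild type arrays. The IZH4 mean of -2.10 in rox1Δ, against 0.77 in wild type cells, rested on replicate 2, which was at -5.75, the lowest ratio of the array, while the other rox1Δ arrays were at -1.35, -0.43 and -0.89. Without that array the IZH4 difference was -1.67 as labelled and 0.12 exchanged, and with it the call was lost on leaving out any wild type array (adjusted p = 0.0518 to 0.0635). Each rox1Δ array had its highest ratio at 5.73 and its lowest at -5.75, at 8 different ORFs in all, and no ORF was beyond 2 in size on more than 1 array. HSP12, a membrane-protecting stress protein, had 0.16, -0.09, -0.84 and -1.50 in rox1Δ, against 0.90, 0.60, 0.69 and 0.84 in wild type cells, and differed by -1.32 ± 0.21 (adjusted p = 0.00106) as labelled and by -0.19 exchanged. It was the only one of 19 general stress genes that passed in either reading. The 15 tested genes of the iron regulon, which iron-starved cells turn on, had ratios of a larger median size in rox1Δ. It was 0.26 against 0.10 in wild type cells, beside 0.07 and 0.08 over all tested ORFs. The rox1Δ mean was nearer 0 in 2 of the 15, beside 55.9% of all tested ORFs. Tested against 0, the ratio passed at 0 of the 15 in rox1Δ and at 0 in wild type cells. FET3, the iron-transport oxidase, was at -0.86, -1.04, -0.67 and -0.06 in rox1Δ, against -0.33, 0.49, -0.36 and -0.24 in wild type cells, and its differences of -0.55 and 0.77 did not pass. ISU2, an iron-sulfur scaffold, was the only member past the test, as labelled (0.60 in rox1Δ and -0.36 in wild type).

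The size of a rox1Δ ratio does not depend on the reading. Tested against 0, it passed at 4 ORFs in rox1Δ (0.0915% of those tested, 295 at an unadjusted p under 0.05) and at 44 in wild type cells (1.01%). The 4, named after their values were seen, were TSA2 at 1.28 ± 0.15 (SE, n = 4, adjusted p = 6.52e-05), OLE1 at 1.05 ± 0.14 (adjusted p = 0.000262), GSH1 at 0.50 ± 0.09 and PST2, a flavodoxin-like protein, at 0.47 ± 0.09 (adjusted p = 0.0224 for both). Each passed in wild type cells as well, with ratios of 1.64, 0.91, -0.72 and 0.45. Exchanged, the sign was that of the wild type ratio in 4 of 4, and as labelled in none. The exchanged differences were between -0.36 and 0.22, with 95% intervals of -0.79 to 0.07 for TSA2, -0.26 to 0.54 for OLE1, -0.06 to 0.49 for GSH1 and -0.23 to 0.27 for PST2. GSH1 did not pass without rox1Δ replicate 1, 2 or 4 (adjusted p = 0.0797, 0.231 and 0.104), nor PST2 without replicate 1, 2 or 3 (0.135, 0.231 and 0.14). With no dye term, OLE1, GSH1 and PST2 did not pass against 0 (adjusted p = 0.567 for each). They also did not pass with the 2 columns of the rox1Δ arrays exchanged together with their dyes (adjusted p = 0.204, 0.365 and 0.374).

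The mean log2 signal of both channels, centred on the median of each array, is the same whichever RNA is in which channel. It measures the level of a gene over treated and untreated RNA together, on a scale where 1 is a doubling. Levels on the rox1Δ arrays were compared with the mean of the mga2Δ and yap1Δ arrays, which were closer in intensity than the wild type arrays, and then with the wild type arrays, a comparison added after the data were seen. Against mga2Δ and yap1Δ arrays, 1079 ORFs were higher in rox1Δ (24.7% of those tested) and 645 lower (14.7%), so a call by itself is common. After quantile normalization the counts were 1052 and 936. Against wild type arrays, 1344 were higher (30.7%) and 812 lower (18.6%). Each strain had arrays of its own, so strain and array set cannot be told apart in these counts. No level under -1.63 occurred on the rox1Δ arrays, against -5.68 in mga2Δ, -3.34 in yap1Δ and -4.92 in wild type, and of 44 ORFs with a mean level under -1.63 in mga2Δ and yap1Δ, 43 were higher in rox1Δ.

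Rox1-repressed genes were high on the rox1Δ arrays. Of 11 tested, 7 were higher and 0 lower than in mga2Δ and yap1Δ, beside 24.7% and 14.7% of all tested ORFs. The median difference was 0.88, beside 0.08 over all tested ORFs. The same count, 7, was higher than in wild type cells, with 1, HMG2, lower, beside 30.7% and 18.6%. The median there was 0.60, beside 0.11. In both comparisons 7 were higher, as were 491 of all tested ORFs (11.2%). In 5 of the 11 every rox1Δ array lay above all 12 other arrays, which was so at 296 ORFs in all (6.77%). Members could be tested only if bright enough to have a value on the rox1Δ arrays. DAN1, among the higher and the non-overlapping members in these counts, had a mean level under -1.63 in mga2Δ and yap1Δ and so could be tested only because it was high in rox1Δ.

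HEM13 had levels of 3.33, 3.34, 3.34 and 3.39 on the rox1Δ arrays. On the mga2Δ arrays it had 0.67, 1.48, 0.56 and 0.73, on the yap1Δ arrays 1.41, 1.16, 1.34 and 1.24, and on the wild type arrays 0.20, 0.73, 1.23 and 1.18. Every rox1Δ array was thus above all others, and the difference was 2.27 ± 0.18 (SE, adjusted p = 5.83e-09), a factor of 4.83, against mga2Δ and yap1Δ and 2.51 (adjusted p = 7.33e-09), a factor of 5.72, against wild type. Read by channel, HEM13 was at 3.16 or above in 8 of 8 channels of the rox1Δ arrays, treated and untreated, and at 1.82 or below in the 24 channels of the other arrays. DAN1, given as a description, was between 0.48 and 1.34 in the 8 rox1Δ channels and at -0.29 or below in the other 24. Its levels were 0.85, 0.92, 1.08 and 0.87 in rox1Δ, -2.48, -3.67, -2.70 and -2.68 in mga2Δ, -2.70, -2.31, -2.33 and -2.38 in yap1Δ, and -0.59, -2.39, -1.26 and -1.41 in wild type cells. The differences of the means were 3.59 against mga2Δ and yap1Δ and 2.34 against wild type, and nothing is read from their size, since DAN1 passed the filter on values only through the group where it was high.

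AAC3, the anaerobic mitochondrial ADP/ATP carrier, lay between 1.35 and 1.41 on the rox1Δ arrays and between -1.30 and 0.13 on the other 12, and differed by 1.84 (adjusted p = 8.71e-08) from mga2Δ and yap1Δ and by 2.11 from wild type. FET4, a low-affinity iron transporter, lay between 1.45 and 1.77, against -1.26 to 1.06, and differed by 1.34 and 2.49. SUT1, a regulator of sterol uptake, differed by 0.55 and 0.60, and NCP1, the cytochrome P450 reductase, by 0.35 and 0.36. NCP1 did not pass against mga2Δ alone (0.27, adjusted p = 0.127) or without rox1Δ replicate 3 or 4 (0.29 and 0.26, adjusted p = 0.094 and 0.11). COX5B was at 2.02 in rox1Δ, 0.31 in mga2Δ, 1.98 in yap1Δ and 0.44 in wild type cells, so rox1Δ and yap1Δ arrays overlapped and their difference of 0.05 did not pass (adjusted p = 0.853). The remaining 4 members did not pass against mga2Δ and yap1Δ. ANB1, which shares most of its sequence with HYP2, was at 4.12 in rox1Δ, 2.89 in mga2Δ, 3.38 in yap1Δ and 3.87 in wild type cells (difference 0.99 ± 0.46, adjusted p = 0.0901, past the threshold at 0.0305 after quantile normalization), and ERG11 was at 3.37, 3.02, 2.91 and 3.08. OLE1, at 2.96 in rox1Δ, 2.35 in mga2Δ, 3.27 in yap1Δ and 2.76 in wild type cells, had a difference of 0.15, and HMG2, an HMG-CoA reductase, of 0.17. The call of ANB1 also differed where the spread came from the 12 deletion strain arrays alone (adjusted p = 6.62e-06).

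**Figure D4:**
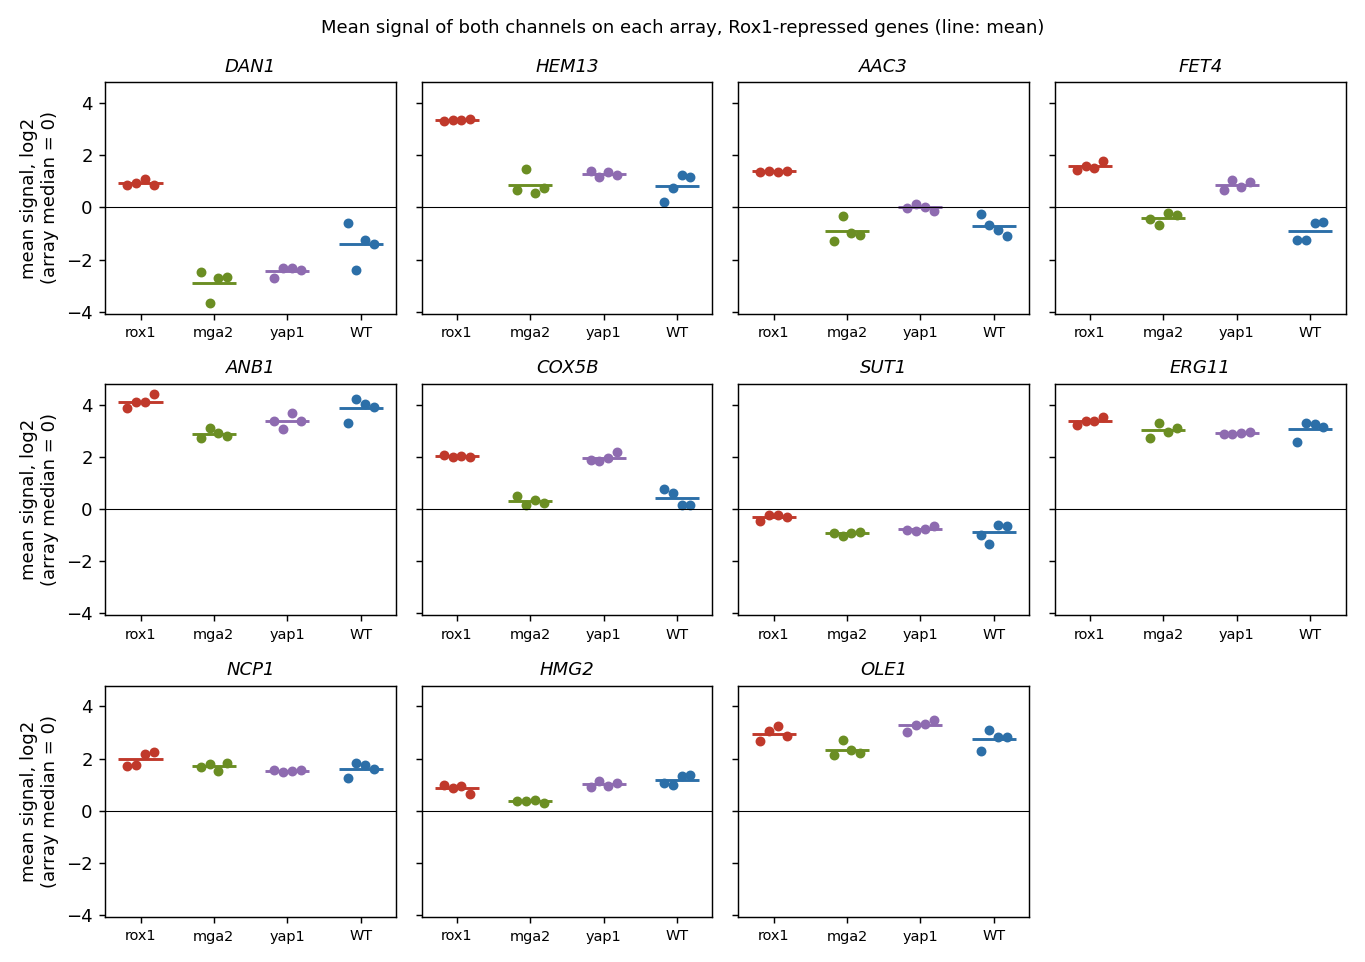
Mean log2 signal of both channels, centred on the array median, on each of the 4 rox1Δ, 4 mga2Δ, 4 yap1Δ and 4 wild type arrays (left to right) for the 11 tested Rox1-repressed genes, with the mean of each group as a line. HEM13, DAN1, AAC3, FET4 and SUT1 lie above all other arrays in rox1Δ, COX5B overlaps yap1Δ, and OLE1 and ANB1 overlap other groups.

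HEM14, SUR2 and ERG28, of heme, sphingolipid and sterol synthesis, had higher levels in rox1Δ than in mga2Δ and yap1Δ. HEM14, the protoporphyrinogen oxidase that acts after HEM13, lay between 0.24 and 0.35 on the rox1Δ arrays and between -1.17 and -0.34 on the other 12 (0.99 ± 0.07 against mga2Δ and yap1Δ, adjusted p = 1.12e-09). SUR2, a sphinganine hydroxylase, averaged 2.61 in rox1Δ, 1.14 in mga2Δ, 1.11 in yap1Δ and 0.69 in wild type cells, and ERG28 averaged 1.81, 0.44, 0.91 and -0.03 in the same order. These 3 were named after their values were seen. Of 9 tested heme genes 3 were higher and 1 lower than in mga2Δ and yap1Δ, of 26 ergosterol genes 8 and 2, of 15 fatty acid genes 3 and 0, and of 11 anaerobic cell wall genes 5 and 1, beside 24.7% higher and 14.7% lower of all tested ORFs, so nothing particular to these lists is read from the counts. Against wild type, the cell wall genes were higher in 1 and lower in 5, beside 30.7% and 18.6% of all tested ORFs. The seripauperins PAU1 to PAU7 in the list are near-identical copies that array probes may not separate. Of 49 ORFs in the part of the study's Rox1 target table that was at hand, 37 were tested, and 15 were higher and 5 lower than in mga2Δ and yap1Δ, with a median of 0.23, beside 24.7%, 14.7% and a median of 0.08 over all tested ORFs.

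The 5 ORFs with the highest levels in rox1Δ against mga2Δ and yap1Δ were DAN1, IZH4, HEM13, GPX2 and YGL088W, an ORF without a gene name. Of these DAN1, IZH4 and YGL088W had a mean level over the mga2Δ and yap1Δ arrays together under -1.63, below any level on the rox1Δ arrays. In yap1Δ alone IZH4 averaged -1.61 and YGL088W -1.46, and in mga2Δ they averaged -3.55 and -1.82. DAN1, IZH4 and YGL088W could thus be tested only because they were above that joint mean in rox1Δ, and nothing is read from their place in this order. IZH4 (2.43) was at -1.22, 2.51, -1.03 and -0.84 on the rox1Δ arrays, and YGL088W (2.05) at -0.42, -0.23, 2.65 and -0.37, so 1 array raised each mean. Without those arrays the differences were 1.55 and 1.30. Neither passed against wild type, at 0.80 (adjusted p = 0.161) and 0.86 (0.083). GPX2 was at 1.59, 1.48, 0.91 and 1.04 in rox1Δ, 0.32, -0.13, 0.23 and 0.27 in mga2Δ, and -0.70, -0.05, -0.64 and -0.62 in wild type cells. In yap1Δ it was between -1.86 and -1.80, and its difference was 1.08 from mga2Δ, 3.08 from yap1Δ and 1.76 from wild type. GPX2 thus stood highest in rox1Δ and lowest in yap1Δ, and neither group overlapped another.

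The 5 lowest were PMA2, PAU17, FCY22, RSO55 and FLO1. PMA2, a plasma membrane proton pump close to PMA1 in sequence, was between -0.42 and 0.21 in rox1Δ and between 1.23 and 3.30 on the other 12 arrays, and differed by -3.30 ± 0.31 (adjusted p = 3.33e-08) from mga2Δ and yap1Δ. PAU17, a seripauperin, differed by -3.26, FCY22, a relative of the purine-cytosine permease, by -2.43, RSO55 by -2.42 and the flocculin FLO1 by -2.38. Each also passed against wild type, with differences between -4.69 and -2.08, and 223 ORFs (5.1%) were lower in both comparisons. Of the 5, all but FLO1 lay below the other 12 arrays on every rox1Δ array, as did 137 ORFs in all (3.13%). PAU17 and FLO1 belong to families of similar copies, and whether their probes also bind other members was not tested.

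General stress genes depended on the reference. Of 19 tested, 15 had lower and 1, the glycogen phosphorylase GPH1, higher levels in rox1Δ than in mga2Δ and yap1Δ. Over all tested ORFs 14.7% were lower and 24.7% higher. The median difference was -1.05, beside 0.08 over all tested ORFs. Against wild type, 15 were higher and 0 lower, beside 30.7% and 18.6% of all tested ORFs, with a median of 1.27, beside 0.11. HSP12 was at 0.88, 0.37, 1.19 and 1.18 in rox1Δ, between 2.44 and 4.01 in mga2Δ, between 2.45 and 3.30 in yap1Δ, and at -0.06, -0.06, -2.27 and -1.77 in wild type cells. Its level in rox1Δ thus lay between the others, 2.28 below mga2Δ and yap1Δ and 1.95 above wild type, and the small heat shock protein HSP26 differed by -1.68 and 1.90 in the same way. Iron regulon genes were lower in 6 and higher in 3 of 15 against mga2Δ and yap1Δ, beside 14.7% and 24.7% of all tested ORFs. Against wild type, 5 were lower and 5 higher, beside 18.6% and 30.7%. FET3 was at 1.48, 1.33, 1.74 and 2.03 in rox1Δ and between 1.96 and 2.87 on the other arrays, and it and its partner permease FTR1 were lower than in mga2Δ and yap1Δ by 0.79 and 0.84.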

How the data were processed

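Poly(A) RNA was labelled with Cy3 and Cy5, with the treated RNA in Cy3 on replicates 1 and 2 and in Cy5 on replicates 3 and 4 of the rox1Δ and wild type groups. The authors quantified Agilent arrays with GenePix and deposited 1 intensity per ORF and channel after background and quantile normalization. The rule for merging spots and the filter behind missing values are not given in the sources used here. Within each group the deposited ratios shared nearly the same quantiles on every array (largest difference 1.85e-11 on the log2 scale in rox1Δ and 0.00497 in wild type). An ORF with the same rank on several arrays then has tied values, as HUG1 at 2.73 on wild type replicates 3 and 4. On the rox1Δ arrays the highest and lowest ratios fell at 8 different ORFs. The effect on replicate errors was not tested. The further deposited table holds the natural log of the ratio for 10807 spots without gene names, with scale and direction inferred from the values, and gave counts only.

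Log2 ratios were fitted with limma 3.58.1 in R 4.3.3 over all 24 arrays, with group means and, per ORF, 1 dye effect common to all groups (17 residual degrees of freedom). P-values are two-sided and adjusted by Benjamini-Hochberg over 4373 ORFs, and a gene passed at an adjusted p under 0.05. The exchanged reading is the same fit with the sign of the rox1Δ mean turned. The mean signal was fitted likewise without a dye term. The fits were tested on simulated data. SE stands for the standard error from the fit, with a median of 0.14 for a ratio difference and 0.12 for a level difference. The number of arrays limits the precision. Of the ORFs, 5774 matched a symbol in a RefSeq table, 4335 of them tested. Named genes were those called under both readings (none), the 5 highest and 5 lowest levels past the threshold, and a fixed list of 20, and others are said to have been named after their values were seen. The members and gene lists were chosen with earlier results of these data known. Genes named only as examples of a list's called members were also chosen after their values were seen. Alternatives were other dye terms, subsets of arrays, scalings, filters, a replicate block and leaving out each array.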

Additional observations from a re-analysis of the deposited data

Results flagged for a closer look

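The 63 ORFs that differed between rox1Δ and wild type cells as labelled were taken for a closer look because the difference itself passed the test. Named genes among them differed by -2.92 (TSA2), -2.88 (IZH4), -2.69 (HUG1), -1.96 (OLE1), -1.91 (RNR3), -1.32 (HSP12), -1.18 (RNR2), -1.01 (HEM13), -0.91 (PST2), -0.77 (ERG25) and -0.77 (FAS1). On the higher side stood GPX2 (2.35), GSH1 (1.22), SOD1 (1.12) and TSA1 (1.08). None of these passed with the channels exchanged.

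Some values of named genes stood far from the other 3 arrays of their group, which chance alone gives in about 1 in 20 groups. On the rox1Δ arrays these were the mean signal of HEM13 (3.39, where the other 3 arrays were at 3.33 to 3.34), ERG25 (3.66), IZH4 (2.51) and YGL088W (2.65), and the log2 ratio of ERG25 (-0.006). The gaps of HEM13 and ERG25 were under 0.1 in mean signal. On the wild type arrays they were the mean signal of RNR3 (-1.97), GPX2 (-0.0527), FLO1 (0.0711), IZH2 (0.0595) and HSP26 (0.38), and the log2 ratio of HSC82 (-0.42), SUR2 (0.31) and FET3 (0.49). The 4 rox1Δ arrays each held their highest and lowest ratio at ORFs that no other rox1Δ array shared, among them ZEO1 at 5.73 on replicate 1, where the other 3 arrays were between -1.23 and 1.39, and FHL1 at -5.75 on replicate 3, where the others were between -0.46 and 0.78.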

How the results depend on the processing

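The labelled count of 63 moved most with the dye term: it was 365 with a dye term per group, 11 with none and 23 with the 2 columns of the rox1Δ arrays exchanged together with their dyes. It was 10 in the table of spots and between 32 and 61 when single arrays were left out (32 without rox1Δ replicate 2, 34 without wild type replicate 1, 35 without wild type replicate 3 or 4, 41 without rox1Δ replicate 1). The exchanged count of 0 became 13 where each group had its own dye term, and 1 with the 8 arrays alone or with the 4383 ORFs that had values on them, and was 0 without each array. Under both readings in the same direction 7 ORFs passed with a dye term per group. The rox1Δ ratio passed against 0 at 77 ORFs with a dye term per group, at 7 with the 8 arrays or their ORFs, at 1 with no dye term or columns exchanged, at 2 spots, and at 3 to 7 without single arrays. The mean signal count of 1724 was between 1321 and 2319 under all alternatives, and 1437 to 1586 without single rox1Δ arrays. Leaving out dim ORFs gave 706 higher and 615 lower.

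Same-numbered arrays of the strains shared no deviation beyond the dye (r between -0.03 and 0.03), so the numbers do not pair them. With a replicate block, 10 ORFs passed as labelled, 3 exchanged and 1 (GPX2) under both. No test of the rox1Δ ratio against 0 could be made with the block. As labelled HEM13, HUG1, RNR3, RNR2, ERG25, FAS1, TSA1, IZH4 and HSP12 did not pass with the block, and RNR2 and IZH4 did not with the 8 arrays alone. With no dye term HEM13, RNR2, FAS1, SOD1, HSP12 and IZH4 did not pass, nor did FAS1 and HSP12 with columns exchanged. The exchanged difference of PST2, 0.02, changed sign without rox1Δ replicate 2 (-0.0013), rox1Δ replicate 3 (-0.0078) or wild type replicate 2 (-0.0357), and was at most 0.0719. The cause of these changes was not tested. Missing dim ORFs on the rox1Δ arrays, the unstated strain of their untreated RNA and the forced distribution of ratios limit all comparisons.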
